A study of Homo sapiens with 8 samples.

Results

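N-glycosylation and its sugar supply was followed as 43 listed genes in human multiple myeloma cells whose IRE1-XBP1 pathway had been targeted by shRNA. The rule took every probe set, a group of short probes read as 1 value, whose single gene symbol in the array annotation is one of these genes. It found 66 probe sets for 38 of the 43 genes, of 54675 probe sets and 19775 genes on the array. Of the 38 genes, 21 had 1 probe set and 17 had several. ALG11, SRD5A3, PMM2, GMPPB and PGM3 had no probe set under the rule and were not analysed here. By role, 10 genes (20 probe sets) encode oligosaccharyltransferase subunits, 15 genes (25) build the lipid-linked glycan, 4 genes (6) supply dolichol, 3 genes (5) encode the glucosidases, 3 genes (4) supply activated mannose and 3 genes (6) supply UDP-GlcNAc.

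The study used 2 established lines grown from malignant human plasma cells, JJN3 and RPMI-8226, with 1 Affymetrix array for each line and treatment, 8 in all. The treatments were a lentivirus (LV) coding for an shRNA to XBP1, one coding for an shRNA to IRE1 (the product of ERN1), one coding for a non-targeted (NT) shRNA, and no LV. Per the labels, LV was applied for 16 h with polybrene at 8 µg/mL and cells were harvested at 96 h. The lines carry no other stated modification, the infected cultures are transduced populations of 1 line each, and 1 shRNA is named per target. The lines are the replicates of a treatment (n = 2). XBP1 and IRE1 shRNA arrays together are called silenced, and NT shRNA and uninfected arrays control.

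In N-glycosylation a glycan is first built sugar by sugar on dolichol, a lipid of the endoplasmic reticulum (ER) membrane. DPAGT1, the ALG13-ALG14 pair, ALG1 and ALG2 add the first sugars on the cytosolic face, and ALG3, ALG9, ALG12, ALG6 and ALG8 add mannose and glucose in the lumen from dolichol-linked donors made by the DPM complex and ALG5. Oligosaccharyltransferase moves the finished glycan onto nascent proteins, and the glucosidases trim it so that the protein can enter the calnexin cycle of folding. Plasma cells secrete glycosylated immunoglobulin, as many myeloma cells do. What the lines used here secrete was not analysed. XBP1, the transcription factor made when IRE1 splices its mRNA, is known to drive ER genes in plasma and myeloma cells.

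Values are log2 signals from which the median of each probe set over the 8 arrays has been taken, so a value says how far an array stood from that median, not how much mRNA there was. Levels of different genes cannot be compared, and the presence of plasma cell markers could not be checked. Differences were tested with limma over 54613 probe sets, with p-values adjusted by the Benjamini-Hochberg method over all of them and a threshold of 0.05, and errors are standard errors. With 2 arrays per treatment the p-values measure the spread between lines after a shared offset, not between repeat cultures.

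Neither target, by XBP1 200670_at and ERN1 235745_at, was lowest on the arrays labelled for it. XBP1 (200670_at) stood at -0.025 with XBP1 shRNA and -1.47 with IRE1 shRNA, against 1.11 with NT shRNA, in JJN3, and at -0.58 with XBP1 shRNA and -0.60 with IRE1 shRNA, against 0.025 with NT shRNA, in RPMI-8226. Relative to NT shRNA, this was -0.87 ± 0.38 with XBP1 shRNA (adjusted p = 0.358) and -1.60 ± 0.38 with IRE1 shRNA (0.212). ERN1 (235745_at) stood at -1.57 with XBP1 shRNA and -1.24 with IRE1 shRNA, against -0.35 with NT shRNA, in JJN3, and at 0.29 with XBP1 shRNA and 2.11 with IRE1 shRNA, against 1.73 with NT shRNA, in RPMI-8226. ERN1 was thus above its NT shRNA array on the RPMI-8226 array labelled IRE1 shRNA, and lowest under the XBP1 label in both lines (-1.33 ± 0.32 against NT shRNA, adjusted p = 0.0926, and -1.37 ± 0.31 by 227755_at, 0.0777). Each target was lower under the label of the other one in both lines, although in RPMI-8226 XBP1 was nearly level. IRE1 shRNA minus XBP1 shRNA was -0.73 ± 0.38 for XBP1 (adjusted p = 0.463) and 1.08 ± 0.32 for ERN1 235745_at (0.154), neither past the threshold. The other probe sets of XBP1 (242021_at) and ERN1 (207061_at) differed from NT shRNA by -0.083 and -0.075 with XBP1 shRNA. XBP1 shRNA and IRE1 shRNA below therefore always mean the arrays so labelled.

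The median of the poly-A controls added to the RNA was above that of all other arrays of the line with XBP1 shRNA, at 0.19 in JJN3 and 0.43 in RPMI-8226, against -0.051 and 0.25 on the NT shRNA arrays. Hybridisation controls had a median of 0.42 on the JJN3 IRE1 shRNA array, against -0.0047 to 0.048 on the other JJN3 arrays and -0.15 to 0.088 on those of RPMI-8226. Markers of T and NK cells, myeloid cells and stromal or epithelial cells had no probe set past the threshold between treatments. Of 13 probe sets of 7 plasma cell markers 1 was lower with XBP1 shRNA than with NT shRNA, and their median was -0.44 in JJN3 and -0.13 in RPMI-8226 with XBP1 shRNA, against 0.042 and 0.060 with NT shRNA.

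MPI, phosphomannose isomerase, which turns fructose 6-phosphate into mannose 6-phosphate at the entry of the mannose branch, fell with XBP1 shRNA in both lines. Its probe set 202472_at stood at -0.76 with XBP1 shRNA, 0.62 with IRE1 shRNA, 1.35 with NT shRNA and 1.05 uninfected in JJN3. In RPMI-8226 it stood at -2.36 with XBP1 shRNA, -0.078 with IRE1 shRNA, 0.078 with NT shRNA and -0.21 uninfected. The XBP1 shRNA array was the lowest of the 4 in each line. The signal was 23.1% of that on the NT shRNA array in JJN3 and 18.4% in RPMI-8226, a difference of -2.28 ± 0.20 (adjusted p = 0.00743), rank 10 by p among all probe sets. Against uninfected cells the difference was -1.98 (adjusted p = 0.00994). IRE1 shRNA minus XBP1 shRNA gave 1.83 ± 0.20 (adjusted p = 0.00949), and IRE1 shRNA minus NT shRNA gave -0.45 ± 0.20 (0.546). In bulk cultures fewer cells with a transcript and less of it per cell cannot be told apart. The poly-A controls and the plasma cell markers also moved with XBP1 shRNA, by the values above, and their part in the result was not tested.

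The second MPI probe set did not pass. 230524_at stood at -0.23 in JJN3 and -0.34 in RPMI-8226 with XBP1 shRNA, against 0.052 and 0.022 with NT shRNA, a difference of -0.32 ± 0.14 (adjusted p = 0.350). Both probe sets were thus lowest on the XBP1 shRNA arrays, by unequal amounts. Calls of 202472_at against NT shRNA were lost when either NT shRNA array was left out, with an adjusted p of 0.0621 without the JJN3 array and 0.110 without the RPMI-8226 array, although the difference stayed at -2.23 and -2.32. Without the JJN3 IRE1 shRNA array the difference between the shRNAs was 2.17 (adjusted p = 0.0740).

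The promoter of MPI is shown because MPI had the lowest p among the members in XBP1 shRNA against NT shRNA, and those of ALG13 because its probe sets disagreed. Each is a RefSeq window on GRCh38.p14 from 250 bases before to 50 after a start, 300 bases, read 5′ to 3′ on the strand of the gene. Windows are chr15:74889792-74890091 (+) for MPI, and chrX:111680920-111681219 (+) and chrX:111681407-111681706 (+) for ALG13. Capitals mark CCACG, or CGTGG where it lies on the other strand, the shared end of the ER stress elements at which XBP1 and ATF6 are known to bind. A match in letters is not evidence of binding.
MPI: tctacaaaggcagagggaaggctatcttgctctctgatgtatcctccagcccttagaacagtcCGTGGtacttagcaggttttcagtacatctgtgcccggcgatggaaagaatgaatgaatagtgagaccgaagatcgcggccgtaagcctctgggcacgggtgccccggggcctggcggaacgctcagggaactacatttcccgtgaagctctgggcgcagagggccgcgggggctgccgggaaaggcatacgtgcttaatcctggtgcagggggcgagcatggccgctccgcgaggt
ALG13 window 1: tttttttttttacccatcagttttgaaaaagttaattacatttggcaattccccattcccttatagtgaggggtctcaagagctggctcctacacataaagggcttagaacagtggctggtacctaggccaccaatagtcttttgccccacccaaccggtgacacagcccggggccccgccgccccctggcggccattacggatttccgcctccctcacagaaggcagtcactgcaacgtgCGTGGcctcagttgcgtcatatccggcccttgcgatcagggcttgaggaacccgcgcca
ALG13 window 2: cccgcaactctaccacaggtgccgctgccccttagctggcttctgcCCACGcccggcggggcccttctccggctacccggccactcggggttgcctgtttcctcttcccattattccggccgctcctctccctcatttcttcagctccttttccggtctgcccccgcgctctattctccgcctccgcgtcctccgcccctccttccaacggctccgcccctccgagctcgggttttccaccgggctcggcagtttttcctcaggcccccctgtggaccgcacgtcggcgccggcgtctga
Each of the 3 windows held the 5 letters 1 time. The first base lies at -187 from the MPI start and at -9 and -204 from the ALG13 starts.

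ALG13 is the catalytic subunit that, bound to ALG14 at the ER membrane, adds the second GlcNAc to the lipid-linked glycan. Its 5 probe sets fell into unlike patterns. For 205583_s_at the values were -0.76 with XBP1 shRNA, 0.11 with IRE1 shRNA, 0.39 with NT shRNA and 0.21 uninfected in JJN3, and -1.47 with XBP1 shRNA, -0.17 with IRE1 shRNA, 0.16 with NT shRNA and -0.11 uninfected in RPMI-8226. For 205584_at they were -0.57 with XBP1 shRNA, 0.086 with IRE1 shRNA, 0.34 with NT shRNA and -0.023 uninfected in JJN3, and -1.23 with XBP1 shRNA, -0.20 with IRE1 shRNA, 0.15 with NT shRNA and 0.023 uninfected in RPMI-8226. Both stood lowest with XBP1 shRNA in each line. They fell by 1.39 ± 0.16 (adjusted p = 0.0128) and 1.15 ± 0.18 (0.0283) against NT shRNA. For 222808_at the values were -0.021 with XBP1 shRNA, -1.03 with IRE1 shRNA, -0.37 with NT shRNA and -0.54 uninfected in JJN3, and 0.93 with XBP1 shRNA, 0.021 with IRE1 shRNA, 0.69 with NT shRNA and 0.40 uninfected in RPMI-8226. It was lowest with IRE1 shRNA and highest with XBP1 shRNA in each line.

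Between the shRNAs, IRE1 minus XBP1, ALG13 gave 1.08 ± 0.16 by 205583_s_at (adjusted p = 0.0182) and -0.96 ± 0.14 by 222808_at (0.0159), so the direction depended on the probe set. 205584_at gave 0.85 ± 0.18 (0.0537). Against NT shRNA, 219015_s_at differed by 0.21 ± 0.22 and 222808_at by 0.30 ± 0.14 with XBP1 shRNA, and by -0.63 ± 0.22 and -0.66 ± 0.14 with IRE1 shRNA (adjusted p = 0.403 and 0.187). 232435_at differed by -0.15 ± 0.14 with XBP1 shRNA and 0.22 ± 0.14 with IRE1 shRNA. The mean of the 5 probe sets differed by -0.44 with XBP1 shRNA (adjusted p = 0.115). Which transcripts each probe set reads was not analysed here. The calls of 205583_s_at and 205584_at against NT shRNA were lost without either NT shRNA array (adjusted p = 0.0767 to 0.209), and that of 205584_at also without the RPMI-8226 XBP1 shRNA array (0.0885) or either IRE1 shRNA array (0.0548 each). Between the shRNAs, 205583_s_at was lost without the RPMI-8226 XBP1 shRNA array (0.0613), the RPMI-8226 IRE1 shRNA array (0.106) or the JJN3 one (0.184), and 222808_at without the JJN3 XBP1 shRNA array (0.0685), the RPMI-8226 IRE1 shRNA array (0.0799) or the JJN3 one (0.191).

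**Figure D1:**
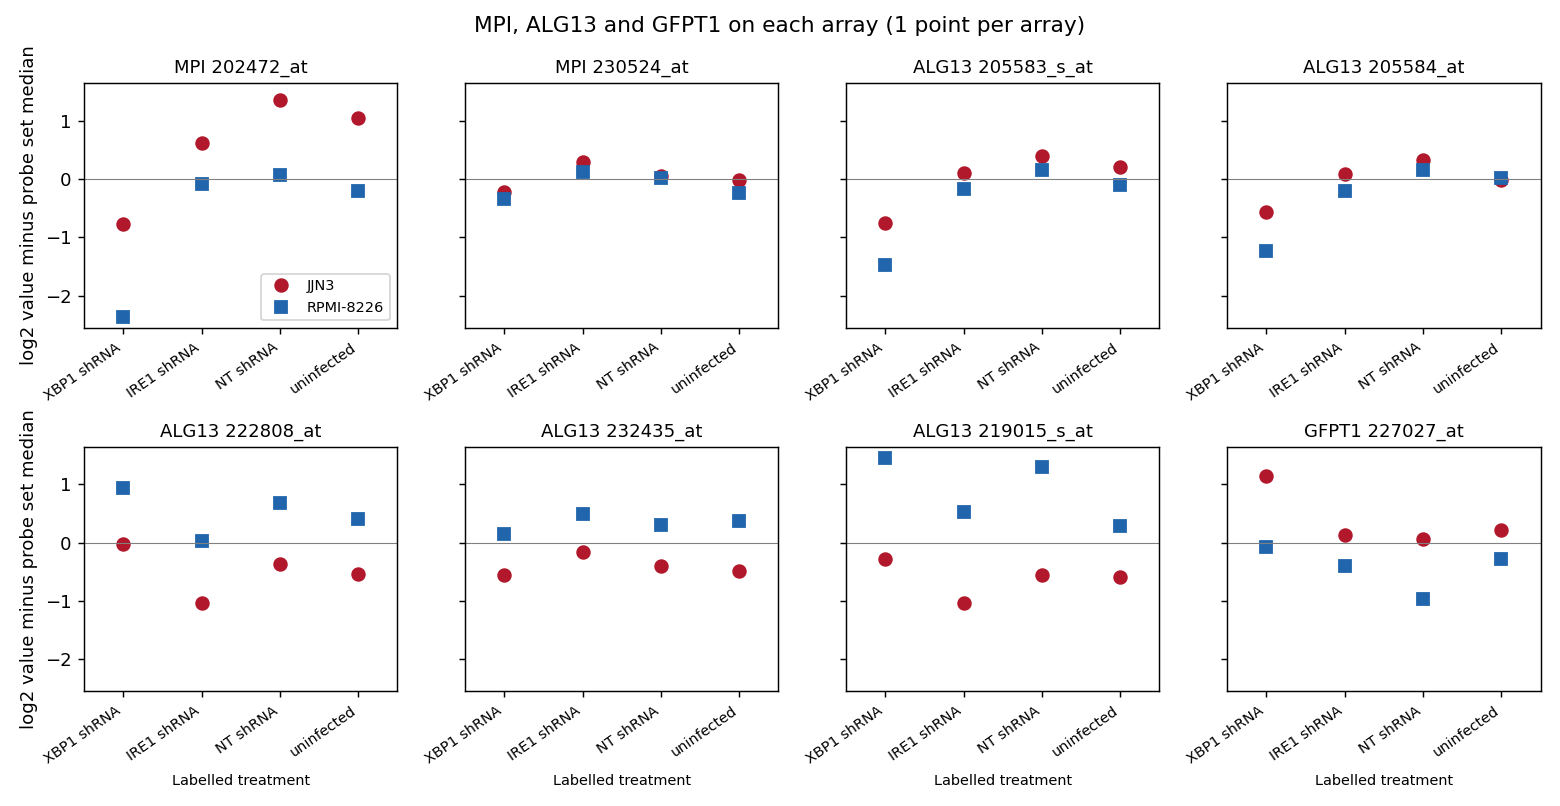
Each panel plots 1 probe set of MPI, ALG13 or GFPT1 by labelled treatment, 1 point per array, as the log2 value minus the median of the probe set over the 8 arrays (circles JJN3, squares RPMI-8226). MPI 202472_at lies at -0.76 and -2.36 with XBP1 shRNA, against 1.35 and 0.078 with NT shRNA, while of the 5 ALG13 probe sets 205583_s_at and 205584_at are lowest with XBP1 shRNA and 222808_at with IRE1 shRNA.

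GMPPA, a regulatory partner of the enzyme that makes GDP-mannose, and PMM1, a phosphomannomutase, complete the measured mannose genes. GMPPA (218070_s_at) stood at -0.10 with XBP1 shRNA and -0.48 with IRE1 shRNA, against 0.37 with NT shRNA and 0.15 uninfected, in JJN3. Its RPMI-8226 values were -0.10 with XBP1 shRNA and -0.14 with IRE1 shRNA, against 0.31 with NT shRNA and 0.10 uninfected. Silenced and control arrays did not overlap in either line. The difference from NT shRNA was -0.44 ± 0.15 with XBP1 shRNA (adjusted p = 0.236) and -0.65 ± 0.15 with IRE1 shRNA (0.212), neither past the threshold. PMM1 values ran from -0.25 to 0.26 over the 8 arrays. Its silenced arrays lay below both controls in JJN3 and overlapped them in RPMI-8226.

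In the hexosamine branch, which makes UDP-GlcNAc, GFPT1 (glutamine-fructose-6-phosphate transaminase 1, its rate-limiting enzyme) stood above NT shRNA with XBP1 shRNA in both lines by 3 of its 4 probe sets, none past the threshold. This comparison of GFPT1 is described beyond the naming rule, as a choice made after its values were seen. For 227027_at the values were 1.14 with XBP1 shRNA, 0.14 with IRE1 shRNA, 0.066 with NT shRNA and 0.22 uninfected in JJN3, and -0.066 with XBP1 shRNA, -0.40 with IRE1 shRNA, -0.96 with NT shRNA and -0.27 uninfected in RPMI-8226. For 202722_s_at they were 0.62 with XBP1 shRNA, -0.19 with IRE1 shRNA, -0.11 with NT shRNA and -0.040 uninfected in JJN3, and 0.47 with XBP1 shRNA, 0.040 with IRE1 shRNA, -0.33 with NT shRNA and 0.11 uninfected in RPMI-8226. The XBP1 shRNA array was the highest of its line in all 4 cases. The differences from NT shRNA were 0.98 ± 0.20 (adjusted p = 0.0542) and 0.77 ± 0.16 (0.0609). 202721_s_at differed by 0.47 ± 0.20 (0.335) and 226886_at by 0.034 ± 0.19 (0.971). Against uninfected cells 227027_at differed by 0.56 (adjusted p = 0.207). It passed at 0.0449 only when the fit held no other treatments than those compared.

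The promoter of GFPT1 is shown beside that of MPI because the genes start the branches that part from fructose 6-phosphate. Its window is chr2:69387178-69387477 (-), and capitals mark ACGTGG on the other strand, a longer match that itself holds CGTGG. The longer match was found 1 time, with its first base at -180. CCACG and CGTGG also occur in this window outside the capitals and are not marked there. The marks are therefore not comparable with those of the MPI window.
GFPT1: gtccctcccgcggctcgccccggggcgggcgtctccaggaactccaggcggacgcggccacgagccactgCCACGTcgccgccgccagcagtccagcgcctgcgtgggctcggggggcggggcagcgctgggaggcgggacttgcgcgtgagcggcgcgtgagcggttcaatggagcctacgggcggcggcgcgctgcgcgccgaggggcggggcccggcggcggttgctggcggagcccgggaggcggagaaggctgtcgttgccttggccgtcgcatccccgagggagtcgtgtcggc

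GNPNAT1, which acetylates glucosamine 6-phosphate, and UAP1, which makes UDP-GlcNAc itself, are the other measured genes of that branch. GNPNAT1 (225853_at) stood at 0.10 with XBP1 shRNA and -0.069 with IRE1 shRNA, against 0.44 with NT shRNA and 0.46 uninfected, in JJN3. In RPMI-8226 it stood at -0.014 with XBP1 shRNA and -0.11 with IRE1 shRNA, against 0.014 with NT shRNA and -0.14 uninfected. The silenced arrays were lower in JJN3 and overlapped the controls in RPMI-8226 (silenced minus control -0.21 ± 0.12, adjusted p = 0.626). UAP1 stood relative to NT shRNA at -0.071 ± 0.20 with XBP1 shRNA and -0.0086 ± 0.20 with IRE1 shRNA.

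Over the whole group, XBP1 shRNA against NT shRNA compared the arrays labelled for XBP1, on which ERN1 was also below NT shRNA, with their controls. Of the 66 probe sets 3 passed the threshold, all lower (MPI 202472_at and ALG13 205583_s_at and 205584_at), where 1.21% of all 54613 probe sets passed. An unadjusted p under 0.05 was reached by 19 of the 66, 15 of them lower, where 13.7% of all probe sets reached it. The median difference was -0.13 over the members and 0.00059 over all probe sets. With the probe sets of a gene averaged, 29 of 38 genes had a negative difference, as did 49.9% of all genes. By role the median was -0.079 for oligosaccharyltransferase, -0.17 for lipid-linked glycan assembly, -0.24 for dolichol supply, -0.11 for the glucosidases, -0.38 for mannose supply and 0.25 for hexosamine supply. GFPT1 holds 4 of the 6 hexosamine probe sets, and with probe sets averaged by gene the median of that role was -0.071, with 2 of 3 genes negative. Within lines the median over the members was -0.15 in JJN3 and -0.069 in RPMI-8226. For lipid-linked glycan assembly the median was -0.070 in silenced against control. It was 0.22 in NT shRNA against uninfected, which shares the NT shRNA arrays.

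IRE1 shRNA against NT shRNA shares its control arrays with that comparison. None of the 66 passed in limma (0 probe sets), where 0.0183% of all probe sets did, and 11 had an unadjusted p under 0.05, all with negative differences, where 9.47% of all reached it. The median difference was -0.11 over the members and 0.0037 over all probe sets, and 29 of 38 genes had a negative difference, as did 50.5% of all genes. The lowest differences were those of ALG9 228817_at (-1.01 ± 0.25), ALG13 222808_at (-0.66 ± 0.14), GMPPA (-0.65 ± 0.15), ALG13 219015_s_at (-0.63 ± 0.22) and ALG2 225621_at (-0.60 ± 0.15), with adjusted p between 0.187 and 0.403. In IRE1 shRNA against XBP1 shRNA 3 of 66 passed, 2 higher (MPI 202472_at and ALG13 205583_s_at) and 1 lower (ALG13 222808_at), where 1.9% of all probe sets passed. There 16 had an unadjusted p under 0.05, 8 in each direction, where 13.7% of all did, and the median was -0.045 over the members and 0.0053 over all.

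**Figure D2:**
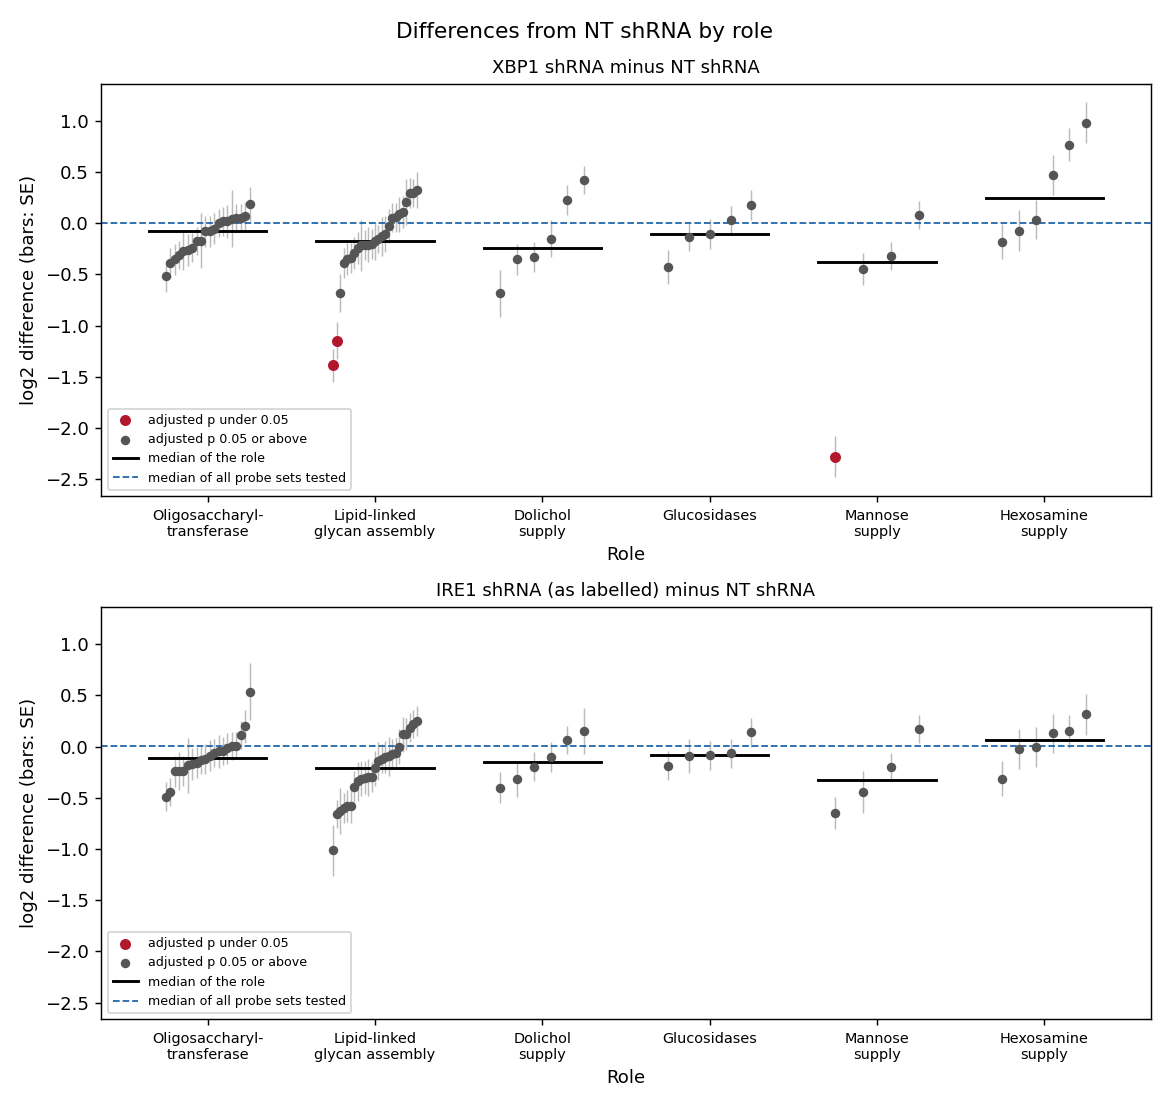
Log2 differences from NT shRNA of the 66 probe sets by role, XBP1 shRNA above and IRE1 shRNA as labelled below, with standard errors (bars), role medians (black lines) and the median of all 54613 probe sets (dashed). With XBP1 shRNA the 3 red points are MPI at -2.28 and ALG13 at -1.39 and -1.15, and hexosamine supply has a median of 0.25 over 6 probe sets, 4 of them of GFPT1, but of -0.071 over its 3 genes, while with IRE1 shRNA no point is red.

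Oligosaccharyltransferase, the complex around STT3A or STT3B that transfers the glycan, had no probe set past the threshold in any comparison of treatments (0 of 20 in limma). Of the 20, 3 had an unadjusted p under 0.05 with XBP1 shRNA and 2 with IRE1 shRNA. Of all probe sets 13.7% and 9.47% did. RPN1 (ribophorin I, a scaffold subunit) stood at -0.31 with XBP1 shRNA and 0.32 with IRE1 shRNA, against 0.34 with NT shRNA and 0.24 uninfected, in JJN3. In RPMI-8226 RPN1 stood at -0.40 with XBP1 shRNA and -0.18 with IRE1 shRNA, against -0.018 with NT shRNA and 0.018 uninfected. It was lowest with XBP1 shRNA in each line, with a difference from NT shRNA of -0.52 ± 0.15 (adjusted p = 0.159). The catalytic STT3A and STT3B differed by -0.27 ± 0.19 and -0.39 ± 0.15 with XBP1 shRNA, and DAD1, a small core subunit, by -0.35 ± 0.15. RPN2 (ribophorin II) and DDOST, further core subunits, differed by 0.0039 to 0.069 and by -0.17 to 0.018.

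KRTCAP2 and OSTC, accessory subunits that tie STT3A complexes to the translocon, were the members of the complex with the lowest p between silenced and control. KRTCAP2 (224885_s_at) stood at -0.016 with XBP1 shRNA and -0.22 with IRE1 shRNA, against 0.27 with NT shRNA and 0.17 uninfected, in JJN3. Its RPMI-8226 values were -0.12 with XBP1 shRNA and -0.19 with IRE1 shRNA, against 0.21 with NT shRNA and 0.016 uninfected. The silenced arrays lay below the controls in both lines, by -0.30 ± 0.10 (adjusted p = 0.360). The other KRTCAP2 probe set, 233122_at, differed by -0.029 ± 0.10. OSTC stood at -0.33 with XBP1 shRNA and -0.62 with IRE1 shRNA in JJN3, against 0.020 with NT shRNA and -0.17 uninfected. In RPMI-8226 OSTC stood at 0.19 with XBP1 shRNA and -0.020 with IRE1 shRNA, against 0.32 with NT shRNA and 0.35 uninfected. Here too the silenced arrays were lower in each line (-0.32 ± 0.11, adjusted p = 0.381). MAGT1 and TUSC3, alternative oxidoreductase subunits of STT3B complexes, had silenced minus control differences of -0.19 to -0.087 (3 probe sets) and -0.12 to 0.21 (5 probe sets).

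**Figure D3:**
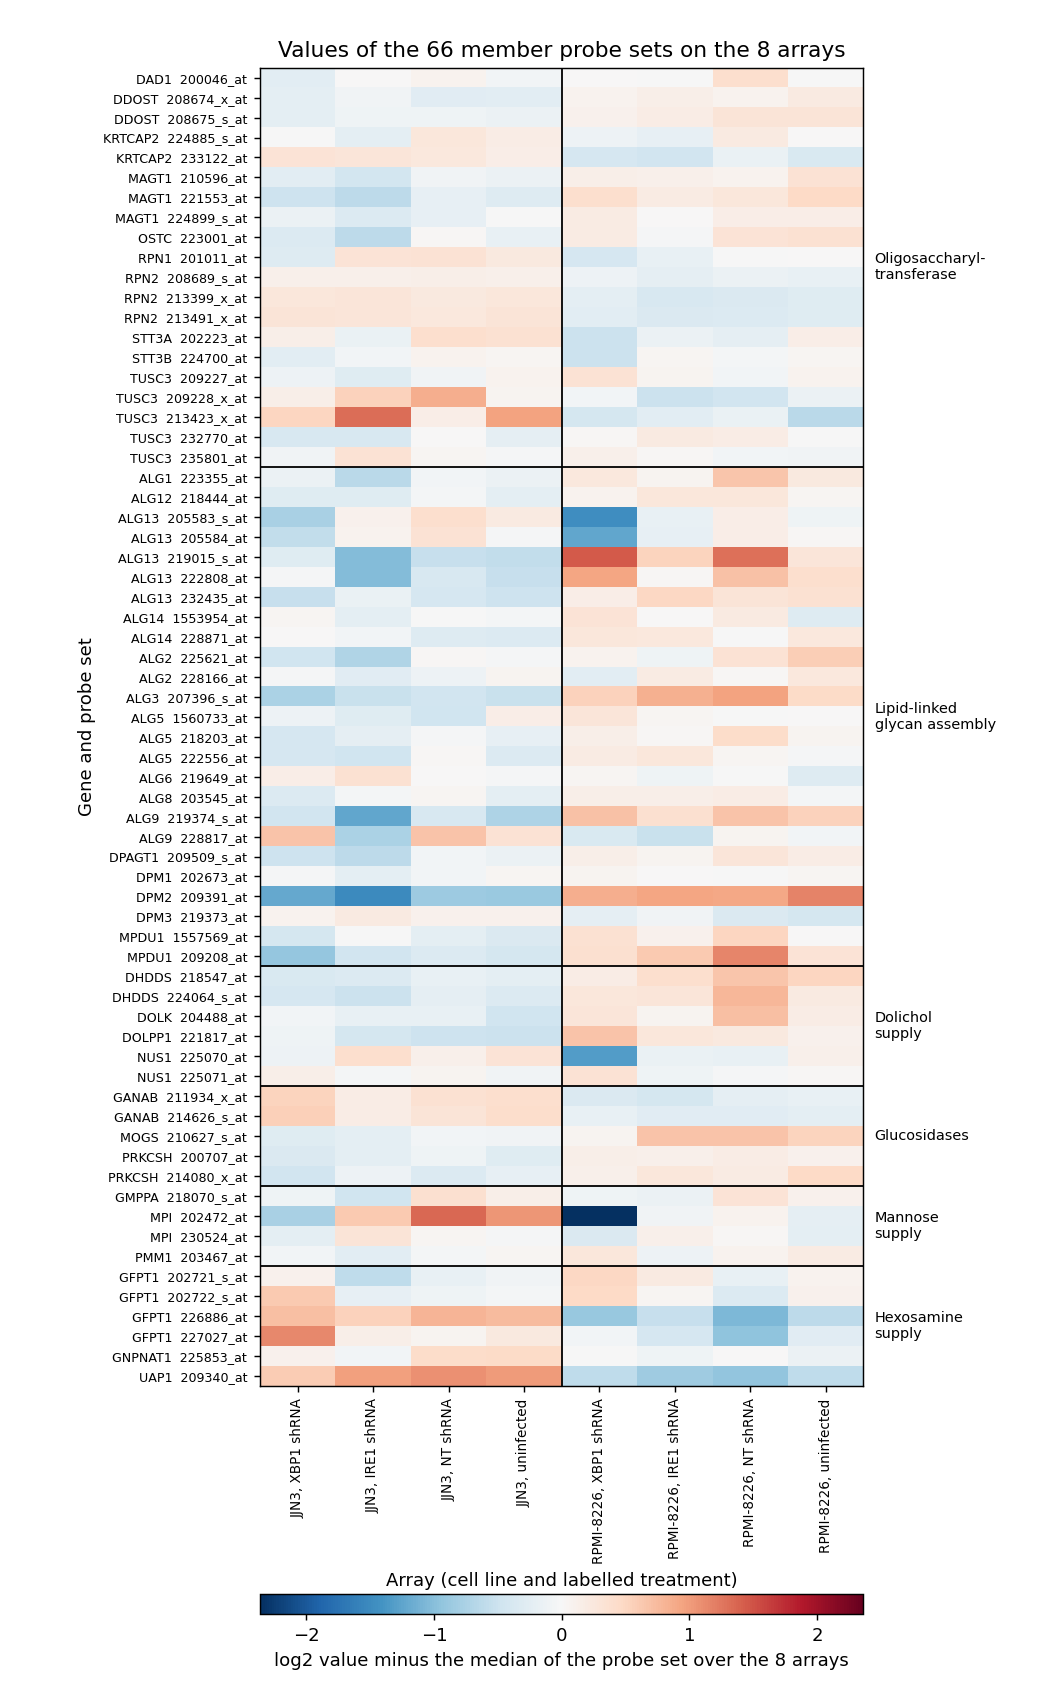
Each row is 1 of the 66 probe sets, grouped by role, and each column 1 of the 8 arrays, JJN3 left and RPMI-8226 right of the line. Colour gives the log2 value minus the median of the probe set over the arrays. The darkest blue cell is MPI 202472_at on the RPMI-8226 XBP1 shRNA array (-2.36), and DPM2, ALG3 and UAP1 show opposite colours in the lines.

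In lipid-linked glycan assembly the 2 ALG13 calls with XBP1 shRNA were the only ones of 25 probe sets against NT shRNA. Of all probe sets 1.21% passed with XBP1 shRNA and 0.0183% with IRE1 shRNA. ALG2, the mannosyltransferase that adds the next mannoses, had the lowest p between silenced and control among the members. ALG2 (225621_at) stood at -0.47 with XBP1 shRNA and -0.71 with IRE1 shRNA, against 0.032 with NT shRNA and -0.032 uninfected, in JJN3. In RPMI-8226 it stood at 0.075 with XBP1 shRNA and -0.11 with IRE1 shRNA, against 0.34 with NT shRNA and 0.59 uninfected. Silenced arrays were below controls in both lines (-0.54 ± 0.11, adjusted p = 0.174), while its other probe set, 228166_at, differed by -0.15 ± 0.12. DPAGT1, which starts the glycan with the first GlcNAc, stood at -0.49 with XBP1 shRNA and -0.61 with IRE1 shRNA in JJN3, against -0.057 with NT shRNA and -0.14 uninfected. In RPMI-8226 DPAGT1 stood at 0.13 with XBP1 shRNA and 0.057 with IRE1 shRNA, against 0.28 with NT shRNA and 0.17 uninfected. The groups again did not overlap within a line (-0.29 ± 0.10, adjusted p = 0.406).

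Among the other assembly genes, MPDU1, needed for use of the dolichol-linked sugars, differed by -0.68 ± 0.19 with XBP1 shRNA (209208_at, adjusted p = 0.133). It stood at -0.91 with XBP1 shRNA, -0.32 with NT shRNA and -0.41 uninfected in JJN3. In RPMI-8226 the same values were 0.38, 1.16 and 0.32, so XBP1 shRNA was not below uninfected there. The other MPDU1 probe set, 1557569_at, differed from NT shRNA by -0.17 ± 0.19 (adjusted p = 0.787). ALG1, which adds the first mannose, differed by -0.58 ± 0.15 with IRE1 shRNA (0.259) and -0.24 ± 0.15 with XBP1 shRNA. ALG9, a luminal mannosyltransferase, stood at -0.74 (228817_at) and -1.23 (219374_s_at) on the JJN3 IRE1 shRNA array, against 0.68 and -0.37 on the JJN3 NT shRNA array. These were the lowest JJN3 values of both ALG9 probe sets. The hybridisation controls also stood apart on that array (0.42), and their part in these values was not tested. The remaining genes ALG3, ALG5, ALG6, ALG8, ALG12, ALG14, DPM1, DPM2 and DPM3 had differences of -0.35 to 0.33 from NT shRNA with XBP1 shRNA and of -0.31 to 0.25 with IRE1 shRNA, none past the threshold.

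Dolichol supply runs through DHDDS and NUS1, the 2 subunits of the cis-prenyltransferase, then DOLK, which phosphorylates dolichol, while DOLPP1 recycles dolichyl pyrophosphate. DOLPP1 stood at -0.11 with XBP1 shRNA and -0.41 with IRE1 shRNA, against -0.49 with NT shRNA and -0.50 uninfected, in JJN3. Its RPMI-8226 values were 0.68 with XBP1 shRNA and 0.27 with IRE1 shRNA, against 0.22 with NT shRNA and 0.11 uninfected. It was the only member whose silenced arrays lay above both controls in each line (0.27 ± 0.12, adjusted p = 0.531). DHDDS (218547_at) stood at -0.35 with XBP1 shRNA and -0.32 with IRE1 shRNA in JJN3, against -0.17 with NT shRNA and -0.23 uninfected. In RPMI-8226 DHDDS stood at 0.17 with XBP1 shRNA and 0.40 with IRE1 shRNA, against 0.65 with NT shRNA and 0.50 uninfected. By this probe set the silenced arrays were lower in each line (-0.21 ± 0.10, adjusted p = 0.559). By DHDDS 224064_s_at (-0.20 ± 0.13) they were lower in JJN3 but lay between the controls in RPMI-8226. NUS1 (225070_at) stood at -1.31 on the RPMI-8226 XBP1 shRNA array, against -0.18 on the NT shRNA array, and at -0.12 against 0.12 in JJN3, while its other probe set 225071_at was at 0.35 against -0.021 in RPMI-8226. The NUS1 probe sets therefore pointed in opposite directions. DOLK differed by -0.15 ± 0.18 with XBP1 shRNA.

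The glucosidases had no call between treatments (0 of 5 in limma). With XBP1 shRNA 1 of the 5 had an unadjusted p under 0.05, where 13.7% of all probe sets did. MOGS, glucosidase I, which removes the outermost glucose, stood at -0.29 with XBP1 shRNA and -0.24 with IRE1 shRNA, against -0.056 with NT shRNA and -0.086 uninfected, in JJN3. In RPMI-8226 it stood at 0.056 with XBP1 shRNA and 0.68 with IRE1 shRNA, against 0.68 with NT shRNA and 0.52 uninfected. It was lowest with XBP1 shRNA in each line (difference from NT shRNA -0.43 ± 0.17, adjusted p = 0.287). GANAB (211934_x_at), the catalytic subunit of glucosidase II, stood at 0.53 with XBP1 shRNA and 0.18 with IRE1 shRNA in JJN3, against 0.37 with NT shRNA and 0.40 uninfected. In RPMI-8226 GANAB stood at -0.33 with XBP1 shRNA and -0.41 with IRE1 shRNA, against -0.22 with NT shRNA and -0.18 uninfected. By this probe set the silenced arrays were lower in RPMI-8226 alone (-0.10 ± 0.10, adjusted p = 0.849). The other GANAB probe set, 214626_s_at, differed by 0.018 ± 0.11 between silenced and control, with overlap in both lines. PRKCSH, the other subunit of glucosidase II, had differences from NT shRNA of -0.13 and -0.11 with XBP1 shRNA.

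Silenced against control, with 4 arrays a side, passed no member in limma (0 of 66) and 0% of all probe sets. An unadjusted p under 0.05 was reached by 11 members, 10 with a negative difference, where 9.3% of all probe sets reached it. The median was -0.080 over the members and 0.0086 over all probe sets, and 31 of 38 genes had a negative mean difference, as did 48.1% of all genes. Both silenced arrays lay below both controls in each line for 7 of the 66 probe sets (ALG13 205583_s_at, ALG2 225621_at, DPAGT1, KRTCAP2 224885_s_at, OSTC, DHDDS 218547_at and GMPPA), as for 4.11% of all probe sets. They lay above for 1, DOLPP1, as for 4.36% of all. The test treats the 2 shRNAs as replicates of one another, so its spread holds their difference. For MPI 202472_at, lowest with XBP1 shRNA in each line and below both controls with IRE1 shRNA in JJN3 alone, it gave -1.21 ± 0.45 (adjusted p = 0.431).

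NT shRNA against uninfected addressed the response to LV itself. No member passed in limma (0 of 66), as 0% of all probe sets did, and 2 had an unadjusted p under 0.05 where 5.57% of all did. Those were ALG13 219015_s_at (0.53 ± 0.22) and MPDU1 209208_at (0.46 ± 0.19), each with an adjusted p of 0.873. The median was 0.058 over the members and 0.0099 over all. By role it was 0.22 for lipid-linked glycan assembly, with 6 of 25 probe sets negative, where 47.8% of all were. It was 0.084 for dolichol supply, 0.19 for mannose supply, -0.0096 for oligosaccharyltransferase, -0.037 for the glucosidases and -0.18 for hexosamine supply. Differences from NT shRNA share these NT shRNA arrays, and the part of this offset in their role medians was not tested. The silencing effect in JJN3 minus that in RPMI-8226 passed for 0 members and 0% of all probe sets in limma, and 1 member had an unadjusted p under 0.05, ALG5 222556_at, where 5.23% of all did.

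JJN3 against RPMI-8226 had treatment as the block and the 4 unlike treatments of a line as its replicates. It separated 46 of the 66 probe sets, where 56% of all probe sets passed. At least 1 probe set passed for 30 of 38 genes, and the share of all genes by that rule was not counted. With the probe sets of a gene averaged, 32 of 38 genes passed, as did 12993 of all 19775 genes. Of the 46 probe sets 17 were higher and 29 lower in JJN3, where 12439 of all probe sets were called higher and 18163 lower. Arrays of the lines did not overlap for 36 member probe sets, 12 with JJN3 above and 24 with JJN3 below. In either direction this held for 48.7% of all probe sets, whose split by direction was not counted. All probe sets had a median of -0.14, and the members -0.20. After cyclic loess the median of all was -0.011 and the split of members 20 higher and 19 lower, and after quantile normalisation it was 18 higher and 24 lower, so the balance depends on the scaling. The actin 3′ minus 5′ difference also moved with the line, at 0.13 to 0.42 on JJN3 and -0.61 to -0.43 on RPMI-8226 arrays, and its part in the result was not tested.

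Of the 25 probe sets of lipid-linked glycan assembly 15 were called lower and 2 higher. Over all 54613 probe sets 18163 were called lower and 12439 higher. DPM2, a regulatory subunit of the dolichol-phosphate mannose synthase, was at -1.50, -1.21, -0.87 and -0.85 on JJN3 arrays, against 0.85, 0.91, 0.93 and 1.18 on RPMI-8226 arrays. Its difference of -2.07 ± 0.12 (adjusted p = 1.19e-06) was the lowest of the 66. ALG3, the first luminal mannosyltransferase, was at -0.75, -0.53, -0.53 and -0.45 on JJN3 arrays, against 0.45, 0.55, 0.84 and 0.95 on RPMI-8226 arrays (-1.26 ± 0.11, adjusted p = 1.49e-05). ALG9 (219374_s_at) was at -1.23, -0.73, -0.46 and -0.37 on JJN3 arrays, against 0.37, 0.54, 0.67 and 0.70 on RPMI-8226 arrays (-1.27 ± 0.12, adjusted p = 2.14e-05). MPDU1 (209208_at) was at -0.91, -0.46, -0.41 and -0.32 on JJN3 arrays, against 0.32, 0.38, 0.61 and 1.16 on RPMI-8226 arrays (-1.15 ± 0.13, adjusted p = 9.31e-05). None of these 4 overlapped between lines. ALG9 228817_at, by contrast, differed by 0.46 ± 0.18 (adjusted p = 0.0502).

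ALG13 was lower in JJN3 by 219015_s_at (-1.51 ± 0.16), 222808_at (-1.0 ± 0.10) and 232435_at (-0.72 ± 0.10) and higher by 205583_s_at (0.38 ± 0.11, adjusted p = 0.0183), the last of which turned to -0.14 after cyclic loess. Also lower were ALG1 (-0.55), ALG2 225621_at (-0.52), MPDU1 1557569_at (-0.49), DPAGT1 (-0.48), ALG5 (-0.41 and -0.37), ALG12 (-0.37), a luminal mannosyltransferase, and ALG14 228871_at (-0.36). DPM3, the membrane anchor of the DPM complex, was higher (0.39 ± 0.10, adjusted p = 0.00927). ALG6 and ALG8, which add the first and second glucose, and DPM1, the catalytic subunit of the complex, did not pass, at 0.22, -0.25 and -0.090. Nor did other probe sets of genes with a call: ALG13 205584_at (0.27), ALG2 228166_at (-0.14), ALG14 1553954_at (-0.11) and ALG5 1560733_at (-0.26). In dolichol supply DHDDS (-0.75 and -0.70), DOLPP1 (-0.70) and DOLK (-0.53) were lower and NUS1 225070_at higher (0.56). NUS1 225071_at did not pass (-0.043).

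The oligosaccharyltransferase calls went both ways, 8 higher and 7 lower. RPN2 (213491_x_at) was at 0.25, 0.28, 0.30 and 0.30 on JJN3 arrays, against -0.34, -0.32, -0.28 and -0.25 on RPMI-8226 arrays (0.58 ± 0.10, adjusted p = 0.000815), and its other probe sets differed by 0.28 and 0.57. TUSC3 (213423_x_at) was at 0.16, 0.52, 0.95 and 1.32 on JJN3 arrays, against -0.63, -0.42, -0.25 and -0.16 on RPMI-8226 arrays (1.10 ± 0.20, adjusted p = 0.00136). TUSC3 209228_x_at was higher too (0.69) and TUSC3 232770_at lower (-0.35), so the probe sets of this gene disagree, and those ending in x_at are designed with a risk of reading related sequences. Higher as well were KRTCAP2 233122_at (0.59), STT3A (0.37) and RPN1 (0.29). MAGT1 was lower by its 3 probe sets (-0.73 to -0.29), as were OSTC (-0.48) and DDOST (-0.37 and -0.33). STT3B (0.070) and DAD1 (-0.15) did not pass, and neither did KRTCAP2 224885_s_at (0.072), TUSC3 209227_at (-0.22) and TUSC3 235801_at (0.069).

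The sugar supply and trimming genes included the highest differences. UAP1 was at 0.59, 0.97, 1.01 and 1.08 on JJN3 arrays, against -0.93, -0.85, -0.60 and -0.59 on RPMI-8226 arrays (1.66 ± 0.14, adjusted p = 1.12e-05). GFPT1 (226886_at) was at 0.55, 0.71, 0.74 and 0.81 on JJN3 arrays, against -1.07, -0.90, -0.62 and -0.55 on RPMI-8226 arrays (1.49 ± 0.13, adjusted p = 1.82e-05). Neither overlapped between lines. GFPT1 227027_at was higher by 0.82 ± 0.14, while 202722_s_at and 202721_s_at differed by -0.0021 and -0.34 and did not pass. MPI 202472_at was higher in JJN3 by 1.21 ± 0.14 (adjusted p = 0.000112), a sign that each of the 4 treatments shared. Its arrays overlapped between the lines. The other MPI probe set, 230524_at, differed by 0.14 ± 0.10 (adjusted p = 0.262) and did not pass. GNPNAT1 (0.29), GMPPA (-0.057) and PMM1 (-0.18) did not pass. GANAB was higher (0.66 and 0.59), and MOGS (-0.65) and PRKCSH (-0.53 and -0.38) were lower.

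**Figure D4:**
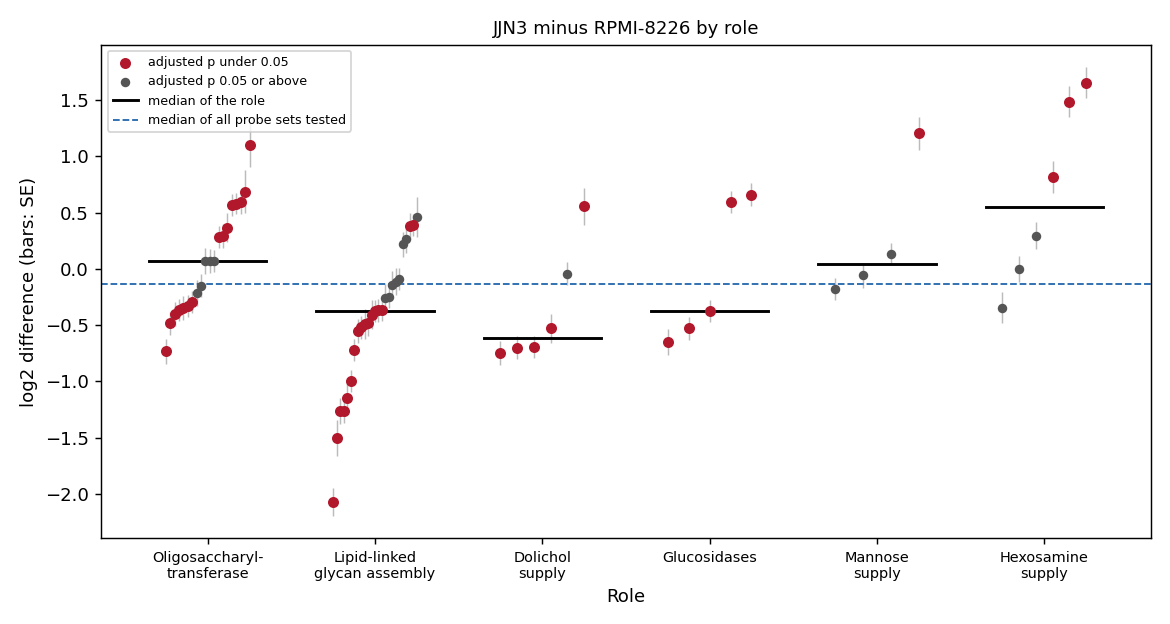
Log2 difference of each of the 66 probe sets, JJN3 minus RPMI-8226, by role, with standard errors (bars), role medians (black lines) and the median of all 54613 probe sets (dashed, -0.14). Red points pass the threshold. Assembly and dolichol supply have medians of -0.37 and -0.61 and hexosamine supply 0.56, with DPM2 lowest at -2.07 and UAP1 highest at 1.66.

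The steps around this group were read from a list of 48 further genes, of which 44 were measured by 105 probe sets: other complex subunits, the calnexin cycle, other sugar activation and Golgi processing. None passed with XBP1 shRNA or IRE1 shRNA against NT shRNA, or silenced against control (0 probe sets each in limma, with 31, 21 and 30 at an unadjusted p under 0.05, where 13.7%, 9.47% and 9.3% of all probe sets reached it). In the calnexin cycle 15 of 32 probe sets had an unadjusted p under 0.05 between silenced and control, where 9.3% of all did, with a median difference of -0.21. In IRE1 shRNA against XBP1 shRNA 1 probe set passed, where 1.9% of all did, that of SLC35A1, the Golgi CMP-sialic acid carrier. It stood at -0.59 in JJN3 and -0.89 in RPMI-8226 with IRE1 shRNA, against 0.46 and 0.13 with XBP1 shRNA (-1.03 ± 0.14, adjusted p = 0.0154). Between the lines 75 of the 105 probe sets passed, where 56% of all probe sets did. At least 1 of these belonged to each of 39 of the 44 genes, a count that rises with the probe sets per gene. The share of all genes by that rule was not counted.

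Promoter windows were listed for 39 of the 43 genes (34 of the 38 measured), 55 windows in all, and compared with all 35116 windows of the table. The full ER stress element ERSE (CCAAT, 9 bases, CCACG) was found in 1 member window, that of ALG12, or 1.82%, and in 0.0769% of all. ERSE-II (ATTGG, 1 base, CCACG) was found in 0 member windows and 0.0541% of all. TGACGTGG, the core of the unfolded protein response element bound by XBP1, was found in 1 member window, that of DHDDS, and in 0.729% of all. The part ACGTGG was found in 17 member windows (30.9%) and 9.72% of all, and CCACG in 37 (67.3%) and 38.1% of all. Both strands were searched, TGACGTGG holds ACGTGG, and ERSE, ERSE-II and ACGTGG each hold CCACG on one strand. Median GC content was 61.3% in the member windows and 58.7% in all. The ALG12 and DHDDS windows are shown as those that hold a full element, chr22:49918389-49918688 (-) and chr1:26432071-26432370 (+), with the element in capitals.
ALG12: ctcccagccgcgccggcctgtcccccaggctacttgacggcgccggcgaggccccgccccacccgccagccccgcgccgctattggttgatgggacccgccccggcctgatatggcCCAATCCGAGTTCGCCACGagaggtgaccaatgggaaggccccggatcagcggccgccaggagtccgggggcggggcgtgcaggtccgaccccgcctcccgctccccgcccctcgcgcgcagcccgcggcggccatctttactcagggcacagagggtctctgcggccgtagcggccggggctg
DHDDS: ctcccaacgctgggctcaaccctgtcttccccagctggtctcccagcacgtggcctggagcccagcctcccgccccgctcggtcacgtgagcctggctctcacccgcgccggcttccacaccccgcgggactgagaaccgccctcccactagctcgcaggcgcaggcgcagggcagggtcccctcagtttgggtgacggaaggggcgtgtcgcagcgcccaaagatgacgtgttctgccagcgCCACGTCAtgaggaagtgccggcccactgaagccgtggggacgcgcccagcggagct
The element begins at -134 from the ALG12 start and at -7 from the DHDDS start. The ALG12 difference from NT shRNA (218444_at) was -0.20 ± 0.14 with XBP1 shRNA and -0.12 ± 0.14 with IRE1 shRNA, and that of DHDDS (218547_at) was -0.33 ± 0.14 and -0.20 ± 0.14, none past the threshold.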

How the data were processed

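The series matrix holds the authors' deposited log2 values, 1 column per array, made with RMA per the submitters' processing notes, which name no version, log base or centring. Base 2 was taken because RMA returns it. The 8 values of every probe set were centred on a median of 0 (tolerance 1e-05), so no expression level or signal over background can be read. Precision is limited by the number of arrays, of which none were identical (0 pairs). Of 54675 probe sets, 41097 had 1 symbol in the platform annotation, 1801 several and 11777 were not listed. The 62 control probe sets were left out, and 54613 were tested. The 38 member genes matched RefSeq (GRCh38.p14) by Entrez ID with the same symbol. The sequences are those of RefSeq.

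Groups came from the labels. limma 3.58.1 (R 4.3.3; lmFit, eBayes, two-sided) was fitted over all probe sets in 7 comparisons, with cell line as the block, or treatment for JJN3 against RPMI-8226. The pairing by line is stated in the labels, since each line gave 1 array per treatment. Benjamini-Hochberg adjustment ran over all probe sets. The scripts were tested on simulated data. The alternatives were 1 probe set per gene (highest SD), gene means, quantile normalisation, cyclic loess, a filter on SD, robust eBayes, no block, fits of the groups compared alone, uninfected cells as control, and leaving out each array.

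Named genes were those with a call in any comparison and the 2 of lowest p per role between silenced and control. Values per array are given for those the results turn on. The members and lists were chosen with earlier results of these data known.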

Additional observations from a re-analysis of the deposited data

Results flagged for a closer look

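A group was the 4 arrays of a line or, with line means taken out, the 4 silenced or 4 control arrays of both lines. In 7 of 124 groups 1 array lay far from the other 3. The cut used would be passed by about 1 in 20 groups of 4 like arrays. That rate does not apply here, since the arrays of a line differ in treatment. The probe sets were also named for their differences in these same data. All 7 were groups of a line. MPI 202472_at was at -2.36 on the RPMI-8226 XBP1 shRNA array, against -0.21 to 0.078 on the other RPMI-8226 arrays. GFPT1 227027_at was at 1.14 on the JJN3 XBP1 shRNA array, against 0.066 to 0.22. RPN1 was at -0.31 on the JJN3 XBP1 shRNA array, against 0.24 to 0.34. On the JJN3 IRE1 shRNA array, where the hybridisation controls were at 0.42, against -0.0047 to 0.048 on the other JJN3 arrays, ALG1 was at -0.64, against -0.15 to -0.066, and DPM3 at 0.21, against 0.086 to 0.11. On the RPMI-8226 NT shRNA array DHDDS 224064_s_at was at 0.79, against 0.21 to 0.28, and ALG14 228871_at at -0.0092, against 0.24 to 0.26.

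For 2 of the 66 probe sets both silenced arrays lay on one side of both controls in one line and on the other side in the other, as for 5.57% of all 54613 probe sets. ALG5 222556_at, of the enzyme that makes dolichol-phosphate glucose, had a silenced minus control difference of -0.28 in JJN3 and 0.22 in RPMI-8226. The difference between the lines, -0.50 ± 0.21, had an adjusted p of 0.950 in limma. KRTCAP2 233122_at had 0.10 in JJN3 and -0.16 in RPMI-8226, and the difference between the lines was 0.26 ± 0.19 (adjusted p = 0.967).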

How the results depend on the processing

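Silenced against control, IRE1 shRNA against NT shRNA, NT shRNA against uninfected and the difference between lines passed 0 member probe sets under each alternative run for them. XBP1 shRNA against NT shRNA passed 3 members, but 1 with 1 probe set per gene or with gene means (both test 38 genes) and 0 with no replicate block. Leaving out 1 array gave 0 to 3. IRE1 shRNA against XBP1 shRNA passed 3 members, but 1 with 1 probe set per gene or gene means, 0 with no replicate block and 5 in a fit of those groups alone. Leaving out 1 array gave 0 to 4. JJN3 against RPMI-8226 passed 46, 30 with 1 probe set per gene and 39 to 41 without 1 array. The replicate block for silenced against control changed no member call. With no replicate block for the difference between lines no value exists, since line is part of the comparison.

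Counts over all probe sets moved more. XBP1 shRNA against NT shRNA called 660, but 436 and 275 genes by highest SD and gene mean, 345 after quantile normalisation, 421 in a fit of those groups, 1151 against uninfected cells, 0 with no replicate block, and 0 to 342 without 1 array. IRE1 shRNA against XBP1 shRNA called 1035, but 657 and 297 genes, 452 after quantile normalisation, 0 with no replicate block and 1 to 755 without 1 array. IRE1 shRNA against NT shRNA called 10, from 0 to 18 under other settings and 0 to 38 without 1 array. Silenced against control called 0, but 14 after quantile normalisation and 0 to 47 without 1 array. JJN3 against RPMI-8226 called 30602, and 13632 and 12993 genes.

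Directions reversed where another probe set stood for the gene. With highest SD, GFPT1 between silenced and control gave -0.013, ALG13 with XBP1 shRNA against NT shRNA 0.21, ALG13 in IRE1 against XBP1 shRNA -0.83 and, in JJN3 against RPMI-8226, ALG13 -1.51 and TUSC3 1.10. With gene means, ALG13 in IRE1 against XBP1 shRNA gave 0.10 and, between lines, ALG13 -0.51 and TUSC3 0.26. After cyclic loess ALG13 205583_s_at between lines gave -0.14, where the cause was not tested. Centred values hold no signal over background, so probe sets near background could not be told from others.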
